A study of Mus musculus with 8 samples.

Results

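The genes described here are 33 mouse genes of sterol and fatty acid synthesis, chosen by name from the pathway: enzymes that make mevalonate, squalene and cholesterol, the regulators of the SREBP transcription factors, carriers and a pump for sterols, and enzymes that make, desaturate and lengthen fatty acids. Of these, 32 had at least 1 probe set annotated to them alone, out of 18193 genes named on the array, and Acat2, which makes acetoacetyl-CoA, was not matched to a probe set here. Their 75 probe sets were part of 45037 that are not array controls. They were measured in LB-22, a line of immortalized cells that derives from the kidney of mouse embryos, on Affymetrix Mouse 430_2 arrays. One group of 4 arrays came from cells given Wt1 siRNA, which targets the transcription factor Wt1, and the other 4 arrays came from cells given a scrambled control siRNA. Both groups received 25 pmol of siRNA for 6 h, and RNA was taken at 48 h. All cells had been grown at 33 °C with 10 U/ml interferon gamma, serum, insulin, hydrocortisone, triiodothyronine and basic FGF, and all were moved to 37 °C without interferon when they were transfected. All 8 arrays come from 1 cell line, and the sources used here do not give the number of different Wt1 siRNAs. Nothing states that replicates were separate cultures. The p-values therefore cover only the variation among these 8 samples, part or all of which may be technical.

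Cholesterol and fatty acids are both built from acetyl-CoA. In the sterol branch, acetyl-CoA is joined into HMG-CoA, turned into mevalonate and isoprene units, condensed to squalene, closed into lanosterol and trimmed to cholesterol. SREBP proteins are membrane-bound transcription factors that switch on most of these enzymes. When sterols are low, SCAP carries SREBP from the endoplasmic reticulum to the Golgi to be cut and released, and when sterols are high, INSIG proteins hold SCAP and SREBP back. Excess sterol also gives oxysterols, which activate the LXR receptors and their targets, such as the efflux pump Abca1.

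The values are the deposited MAS5 signals, a linear brightness per probe set that is scaled so that each array has the same trimmed mean, and differences are on the log2 scale, Wt1 siRNA minus control siRNA. Of the non-control probe sets, the brighter 22519 by mean log2 signal were tested together with limma, with p-values adjusted over all of them and a threshold of 0.05. A gene is represented by its brightest probe set, and "higher" or "lower" is said only of genes past that threshold. Errors are the SD of the signal over 4 arrays per group, and the SE of a log2 difference. Wt1 itself had signals of 1679, 1531, 1317 and 1914 on the 4 Wt1 siRNA arrays, against 8397, 7129, 8197 and 7423 on the 4 control siRNA arrays. Its log2 difference was -2.28 ± 0.11, which is 20.5% of control (adjusted p = 9.17e-07). Pairs of arrays of the same group correlated at 0.966 to 0.985 over the tested probe sets, against 0.937 to 0.967 for pairs from different groups. The 3′/5′ signal ratio of the Gapdh control probe sets was 0.81 to 0.89 in Wt1 siRNA and 0.79 to 0.91 in control siRNA arrays. Wt1 siRNA array 4 had the lowest signal of its group in 15 of 32 member genes (46.9%, against 36.7% of all tested genes), and control siRNA array 3 had the highest of its group in 15 of 32 (46.9%, against 36.7%). Over the 60 tested probe sets of the members, however, control siRNA array 3 was the lowest of its group in 26 and the highest in 19. Without these 2 arrays the same counts and genes were called as with all 8: 7 higher and 4 lower. This holds for the brightest probe set of each gene. Counted as probe sets, 8 were lower without these 2 arrays, against 4 with all 8 arrays. The share over all tested probe sets was not read for that setting.

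All 32 measured genes were bright enough to be tested, through 60 of their 75 probe sets. Wt1 siRNA cells had 7 genes higher, Acly, Fdps, Hsd17b7, Scap, Stard4, Acaca and Abca1, and 4 genes lower, Insig1, Hmgcs1, Msmo1 and Tm7sf2, while 21 did not pass the test. The called share was 34.4% of the 32 genes, against 27.8% of the 11264 genes tested on the array. Split by direction, 21.9% were higher, against 13.2% of all tested genes, and 12.5% were lower, against 14.6%. The 2 groups of arrays did not overlap in these 11 genes and in no other member, a share of 34.4% against 32.4% of all tested genes. The changes were small: none of the members reached 2-fold, the largest rise was 1.54-fold (Hsd17b7), and the largest fall was to 59.6% of control (Insig1). The median difference over the 32 genes was 0.01, against -0.0044 over all tested genes, and the median size of a difference without its sign was 0.20, against 0.22. Arrays measure RNA of a whole culture, so fewer cells of a type and less RNA per cell cannot be told apart.

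**Figure D1:**
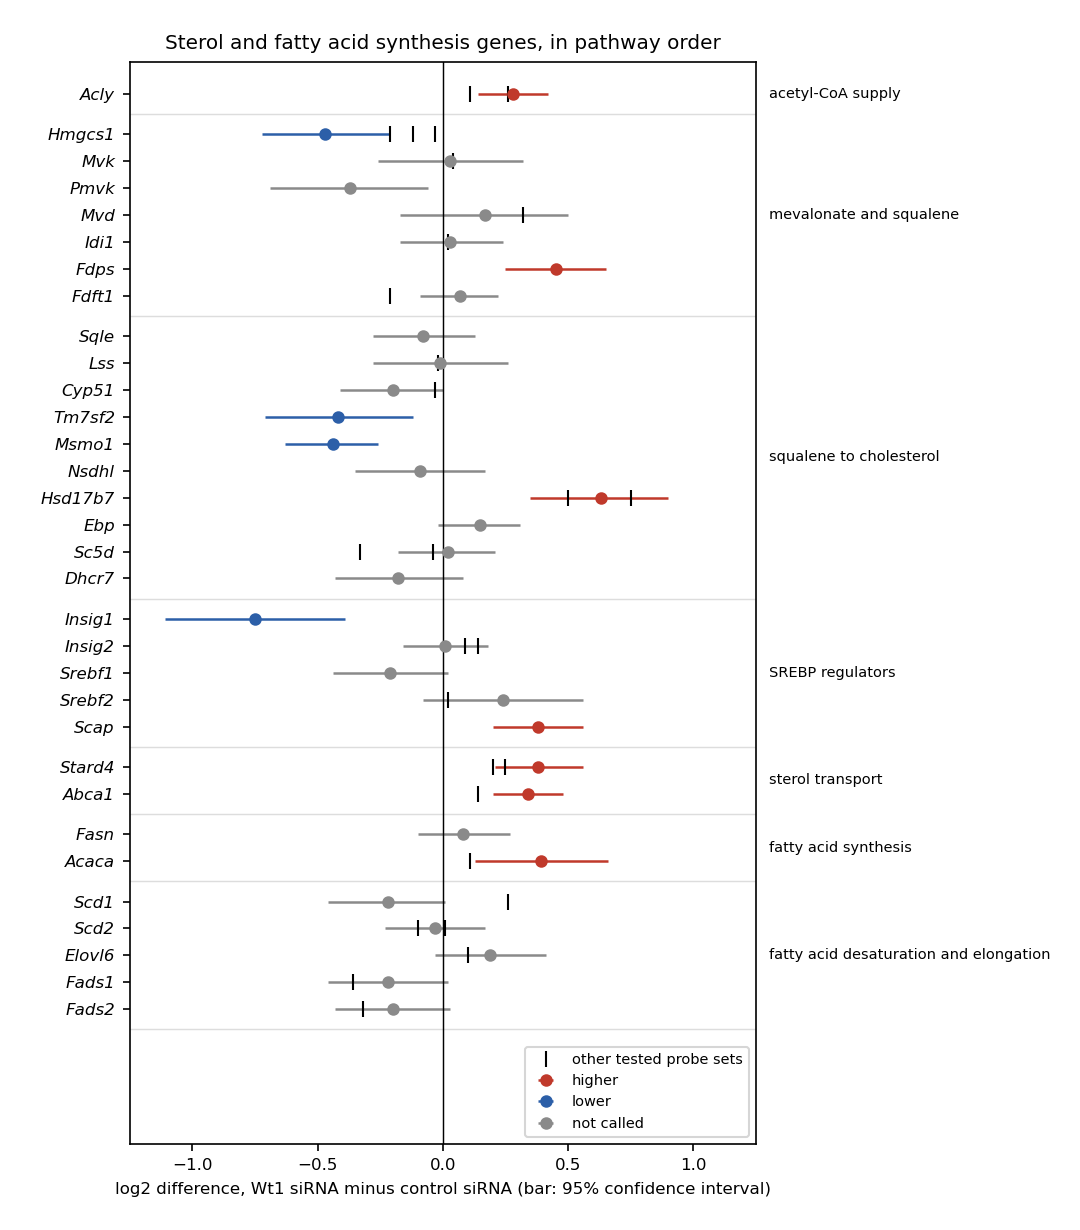
Log2 difference in signal, Wt1 siRNA minus control siRNA, for the brightest probe set of each of the 32 measured genes, in pathway order from top to bottom, with the 95% confidence interval as a bar (4 arrays per group). Red points are higher, blue points lower and grey points not past the threshold, and black ticks are the gene's other tested probe sets. Higher and lower genes lie side by side within the mevalonate, cholesterol and SREBP regulator groups.

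The promoters of the 4 lower genes and of Hsd17b7, which had the largest rise, are shown because SREBP acts with the factor NF-Y, which binds the CCAAT box. Each line below gives the 250 bases before the RefSeq start site (GRCm38.p6), read 5′ to 3′ on the gene's own strand. Capitals mark the sterol response element TCACNCCAC, the CCAAT box in either orientation (CCAAT or ATTGG) and the E-box CACGTG. The windows are chr5:28071162-28071411 (plus strand) for Insig1, chr13:119690101-119690350 (plus strand) for Hmgcs1, chr8:64733579-64733828 (minus strand) for Msmo1, chr19:6067851-6068100 (minus strand) for Tm7sf2 and chr1:169969206-169969455 (minus strand) for Hsd17b7.
Insig1: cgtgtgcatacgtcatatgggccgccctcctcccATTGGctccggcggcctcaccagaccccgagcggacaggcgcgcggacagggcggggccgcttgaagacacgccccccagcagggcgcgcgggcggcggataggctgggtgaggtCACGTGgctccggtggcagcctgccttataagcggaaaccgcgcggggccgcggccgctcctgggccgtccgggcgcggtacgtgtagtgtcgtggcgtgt
Hmgcs1: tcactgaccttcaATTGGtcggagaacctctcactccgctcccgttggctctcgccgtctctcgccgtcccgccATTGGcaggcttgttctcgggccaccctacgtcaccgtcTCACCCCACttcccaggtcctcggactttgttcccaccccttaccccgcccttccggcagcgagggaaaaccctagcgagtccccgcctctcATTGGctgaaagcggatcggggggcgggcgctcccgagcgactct
Msmo1: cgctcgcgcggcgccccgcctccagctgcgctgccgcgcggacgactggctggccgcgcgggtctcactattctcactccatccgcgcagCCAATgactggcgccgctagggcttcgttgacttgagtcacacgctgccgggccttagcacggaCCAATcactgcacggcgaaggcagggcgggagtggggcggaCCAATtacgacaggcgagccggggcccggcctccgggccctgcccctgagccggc
Tm7sf2: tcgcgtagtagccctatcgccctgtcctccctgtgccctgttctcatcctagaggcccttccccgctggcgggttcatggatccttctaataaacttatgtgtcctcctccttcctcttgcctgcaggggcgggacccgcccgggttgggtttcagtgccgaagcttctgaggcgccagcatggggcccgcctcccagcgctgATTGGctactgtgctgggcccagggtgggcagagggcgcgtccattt
Hsd17b7: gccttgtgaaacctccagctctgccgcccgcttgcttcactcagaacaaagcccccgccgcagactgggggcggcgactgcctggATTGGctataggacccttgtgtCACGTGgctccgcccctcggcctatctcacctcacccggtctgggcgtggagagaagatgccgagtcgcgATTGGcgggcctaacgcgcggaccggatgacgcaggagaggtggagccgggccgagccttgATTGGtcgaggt

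The Hmgcs1 window held the only match to TCACNCCAC among the members, beginning 137 bases before the start. Over windows of 300 bases (250 before and 50 after each start, both strands searched), 26 of the 33 members had 34 windows in the table. The sterol response element letters were in 1 of these 34 (2.94%), against 1.24% of all 32851 windows. CCAAT was in 21 of 34 (61.8%), against 37.4% of all windows. The GC box GGGCGG was in 26 of 34 (76.5%), against 35.7%, and CACGTG was in 7 of 34 (20.6%), against 7.15%. By gene, CCAAT was in 20 of the 26 members with a window, among them 4 of the 4 lower and 2 of the 5 higher genes. The rest of the 20 did not pass the test: Mvk, Pmvk, Mvd, Idi1, Lss, Cyp51, Nsdhl, Ebp, Sc5d, Dhcr7, Insig2, Srebf1, Srebf2 and Fasn. CCAAT was thus not particular to the lower genes. The higher genes whose windows are not shown, Abca1, Scap, Acaca and Acly, had no CCAAT box within the 250 bases before the start. The match of Acly was found only in its window of 300 bases. GGGCGG was in 22 of 26, among them 4 lower and 4 higher genes, and CACGTG in 6 of 26, among them 1 lower and 3 higher genes. Of the motifs that WT1 is known to bind, GCGTGGGAG was in 0 of 34 windows, against 0.472% of all windows. The related motif GCGGGGGCG was in 1 of 34 (2.94%, Dhcr7), against 2.91%. These matches describe the letters in the windows only, and Fdps and Stard4 had no window in the table.

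Acly, ATP citrate lyase, makes the cytosolic acetyl-CoA from which both branches start. Its signals were 13483, 14357, 14019.7 and 12888 on the Wt1 siRNA arrays, against 11224, 11207, 11686 and 11012 on the control siRNA arrays. All Wt1 siRNA arrays lay above all control siRNA arrays, with a log2 difference of 0.28 ± 0.06 (1.21-fold, limma adjusted p = 0.00927). Its other tested probe sets differed by 0.26 and 0.11 and did not pass (adjusted p = 0.106 and 0.492). With each array centred on its own median signal, the difference was 0.39 at an adjusted p of 0.0596. Averaged over all 6 of its probe sets, 3 of which were too dim to be tested, the direction turned (-0.38, adjusted p = 0.412).

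In the mevalonate and squalene steps, 1 of 7 genes was higher and 1 was lower, with a median difference of 0.03. Hmgcs1 joins acetyl-CoA to acetoacetyl-CoA to make HMG-CoA. Hmgcs1 signals were 11159, 11930.5, 10932 and 7814 in Wt1 siRNA cells, against 13289, 14266, 15135 and 14438 in control siRNA cells. Every Wt1 siRNA array was below every control siRNA array, and array 4 was the lowest. The mean signal was 10459 ± 1814 in Wt1 siRNA and 14282 ± 761 in control siRNA cells, a log2 difference of -0.47 ± 0.12 (adjusted p = 0.0145, 72.4% of control). Its other 3 tested probe sets differed by -0.21, -0.12 and -0.03 and did not pass (adjusted p = 0.0919, 0.283 and 0.814). The call on Hmgcs1 was lost with median centring (-0.36, adjusted p = 0.161), with the mean over all its probe sets (-0.21, adjusted p = 0.211) and without probe sets whose design allows matches to more than 1 transcript (-0.03, adjusted p = 0.819). It held without Wt1 siRNA array 4 and control siRNA array 3 together, at -0.30 (adjusted p = 0.00536).

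Fdps, farnesyl diphosphate synthase, joins isoprene units into the precursor of squalene and of protein prenyl groups. Fdps had signals of 9548, 9516, 10684 and 8312 in Wt1 siRNA cells, against 7356, 7318, 6188 and 6969.8 in control siRNA cells. The groups were apart, and the gene was 1.37-fold higher (log2 difference 0.45 ± 0.09, adjusted p = 0.00407). The enzymes between Hmgcs1 and Fdps did not pass the test. Mvk, mevalonate kinase, differed by 0.03 (95% confidence interval -0.26 to 0.32) and Idi1, which isomerizes the isoprene unit, by 0.03 (-0.17 to 0.24). Pmvk, phosphomevalonate kinase, had signals of 876, 1044, 968 and 993 in Wt1 siRNA cells, against 1409, 1433, 1266 and 968 in control siRNA cells, so the groups overlapped. Its difference was -0.37 ± 0.14 (adjusted p = 0.0863), and it passed without control siRNA array 4 (-0.50, adjusted p = 0.0254). Mvd, mevalonate diphosphate decarboxylase, differed by 0.17 (-0.17 to 0.50), and its second probe set by 0.32. Fdft1, squalene synthase, differed by 0.07 (-0.09 to 0.22) on its brightest probe set and by -0.21 on the other.

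Between squalene and cholesterol, 1 of 10 genes was higher, 2 were lower and 7 did not pass, with a median of -0.08. Lanosterol carries extra methyl groups that are taken off in successive steps, in which Msmo1, Nsdhl and Hsd17b7 act on the same pair of methyl groups. Msmo1, the methylsterol monooxygenase of that series, had signals of 5786, 6606, 6632 and 5302 in Wt1 siRNA cells, against 8294, 8633, 7871 and 8151 in control siRNA cells. The groups did not overlap, and the log2 difference was -0.44 ± 0.08 (adjusted p = 0.00313, 73.5% of control). With median centring it was -0.34 at an adjusted p of 0.117. Nsdhl, the dehydrogenase that follows, had 2821 ± 464 in Wt1 siRNA and 2988 ± 262 in control siRNA cells and did not pass (-0.09, -0.35 to 0.17).

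Hsd17b7, the ketoreductase that completes the removal, had the largest rise among the members. Hsd17b7 signals were 1823, 1789, 2118 and 1828 in Wt1 siRNA cells, against 1177, 1442, 1009.6 and 1296 in control siRNA cells. All Wt1 siRNA arrays were above all control siRNA arrays, and the gene was 1.54-fold higher (log2 difference 0.63 ± 0.13, adjusted p = 0.00416). A second probe set rose as well (0.75 ± 0.11, adjusted p = 0.000514), and the last tested one differed by 0.50 (adjusted p = 0.104). Hsd17b7 was the only 1 of the 6 called genes with several tested probe sets in which more than 1 passed.

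Tm7sf2, a sterol reductase that acts right after the lanosterol demethylase Cyp51, had signals of 652, 647, 632 and 687 in Wt1 siRNA cells, against 1012, 857, 843 and 796 in control siRNA cells. The groups were apart, with control siRNA array 1 the highest, and the log2 difference of -0.42 ± 0.14 passed narrowly (adjusted p = 0.045). The call was lost in 10 of 20 alternative settings, among them leaving out any 1 of Wt1 siRNA arrays 1, 2 and 3 or of control siRNA arrays 1, 2 and 4, with adjusted p up to 0.212. Cyp51 itself had 3140 ± 310 in Wt1 siRNA and 3606 ± 248 in control siRNA cells and did not pass (-0.20, adjusted p = 0.146).

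The other enzymes of this stretch had intervals that include 0. Sqle, squalene epoxidase, differed by -0.08 (-0.28 to 0.13), and Lss, lanosterol synthase, by -0.01 (-0.28 to 0.26). Ebp, the sterol isomerase, differed by 0.15 (-0.02 to 0.31). Sc5d, the sterol desaturase, differed by 0.02 (-0.18 to 0.21), with -0.04 and -0.33 on its other probe sets. Dhcr7, the reductase of the last step, had 1139 ± 46.8 in Wt1 siRNA and 1292 ± 151 in control siRNA cells, a difference of -0.18 (-0.43 to 0.08).

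**Figure D2:**
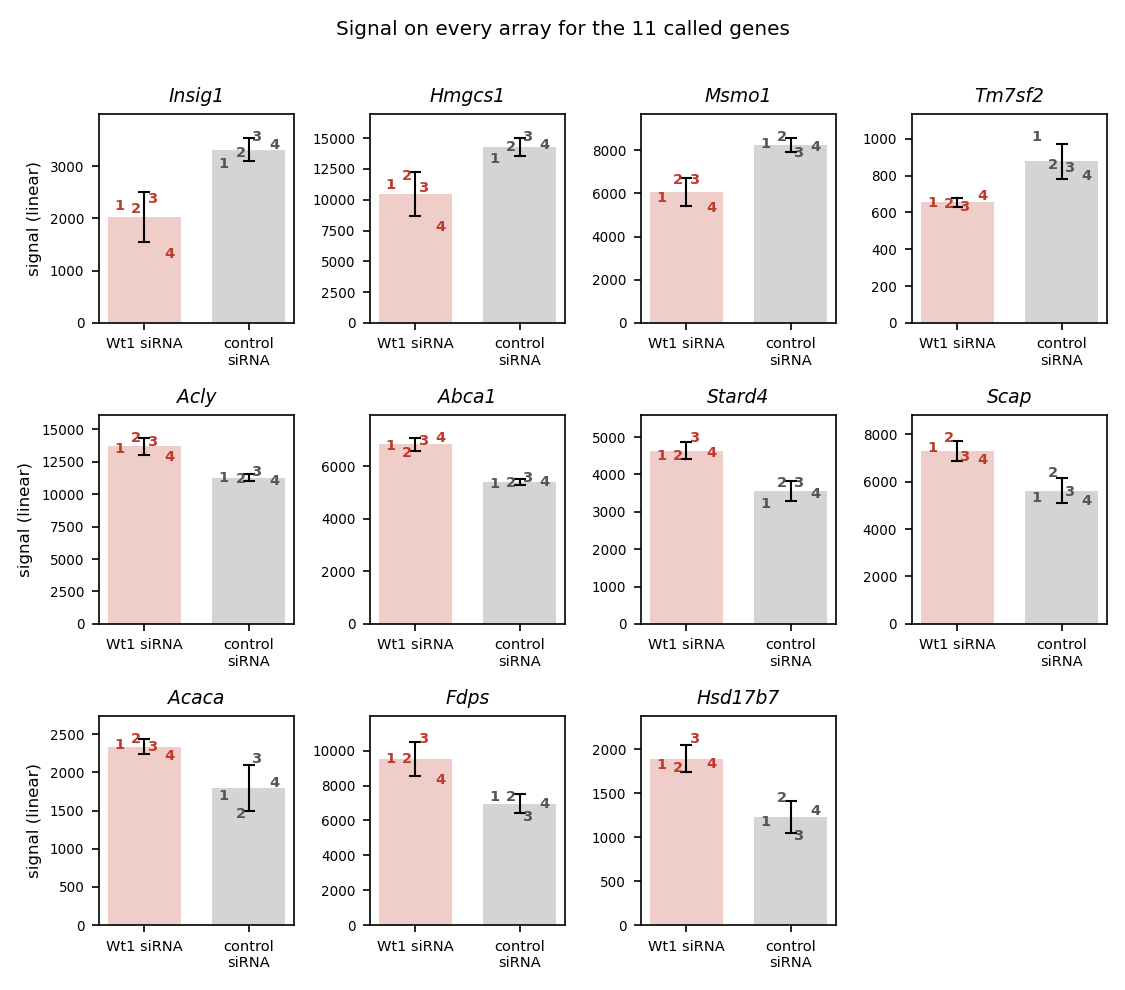
Linear MAS5 signal of the 11 called genes on every array, with Wt1 siRNA in red to the left of control siRNA in grey. Numbers are the arrays, bars the group means and whiskers the SD (4 arrays per group), and every vertical axis starts at 0. The groups are apart in all 11 panels, and Wt1 siRNA array 4 lies lowest of its group in 7 of them: Insig1, Hmgcs1, Msmo1, Acly, Fdps, Scap and Acaca.

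Among the SREBP regulators, 1 of 5 genes was higher, 1 was lower and 3 did not pass. Insig1, which retains SCAP and SREBP in the endoplasmic reticulum and is itself an SREBP target, showed the largest fall of all members. Insig1 signals were 2241, 2185, 2362 and 1311 in Wt1 siRNA cells, against 3030.1, 3258, 3564 and 3403 in control siRNA cells. Every Wt1 siRNA array was below every control siRNA array, with array 4 well below the other 3 of its group. The mean was 2025 ± 482 in Wt1 siRNA and 3314 ± 227 in control siRNA cells, and the log2 difference was -0.75 ± 0.16 (95% confidence interval -1.11 to -0.39, adjusted p = 0.0071, 59.6% of control). It was -0.55 without Wt1 siRNA array 4 (adjusted p = 0.00146), and it passed in all 21 alternative settings, from -0.83 to -0.51. Insig1 has 1 probe set, so the settings that average probe sets could not change its difference. Insig2, the second INSIG gene, had 3485 ± 233 in Wt1 siRNA and 3455 ± 115 in control siRNA cells, a difference of 0.01 (-0.16 to 0.18).

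Scap, the escort of SREBP, had signals of 7409.9, 7855, 7023 and 6899 in Wt1 siRNA cells, against 5323, 6379, 5552 and 5193 in control siRNA cells. The groups were apart, and Scap was 1.3-fold higher (log2 difference 0.38 ± 0.08, adjusted p = 0.00649). The SREBP genes themselves did not pass. Srebf1, which encodes the form that mainly drives fatty acid synthesis, had signals of 5776, 5029.7, 4639 and 5147 in Wt1 siRNA cells, against 6835, 4989.7, 6360.3 and 5683 in control siRNA cells. These groups overlapped, with a difference of -0.21 (-0.44 to 0.02). Srebf2, the form that mainly drives cholesterol synthesis, had 4059, 3300.5, 3889 and 5747 in Wt1 siRNA cells, against 3621, 3998, 3182 and 3362 in control siRNA cells. Its difference was 0.24 (-0.08 to 0.56), with Wt1 siRNA array 4 far above the rest. Without that array it was 0.08 (adjusted p = 0.617), and its other probe set differed by 0.02.

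Both genes of sterol transport were higher. Stard4 carries cholesterol between membranes and is a known SREBP target, and Abca1 exports cholesterol to apolipoproteins and is a known LXR target. Stard4 signals were 4493, 4502, 4985 and 4581 in Wt1 siRNA cells, against 3219, 3764, 3774 and 3476 in control siRNA cells. Stard4 was 1.31-fold higher with the groups apart (log2 difference 0.38 ± 0.08, adjusted p = 0.00521), and its other probe sets differed by 0.20 and 0.25 without passing. Abca1 signals were 6795, 6497, 6977 and 7099 in Wt1 siRNA cells, against 5336, 5362, 5557 and 5390.3 in control siRNA cells. Again the groups did not overlap, and Abca1 was 1.26-fold higher (log2 difference 0.34 ± 0.06, adjusted p = 0.00322). Its second tested probe set differed by 0.14 (adjusted p = 0.697), and the mean over both, an alternative chosen after seeing the data, did not pass (0.24, adjusted p = 0.146).

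In fatty acid synthesis, Acaca was higher and Fasn did not pass. Acaca, acetyl-CoA carboxylase, makes the malonyl-CoA that Fasn builds into palmitate. Acaca signals were 2361, 2442, 2337 and 2218 in Wt1 siRNA cells, against 1687, 1457, 2182 and 1864 in control siRNA cells. The groups were only just apart, at control siRNA array 3, and the log2 difference was 0.39 ± 0.12 (1.31-fold, adjusted p = 0.0353). The call was lost in 12 of 21 alternative settings, among them leaving out any 1 of Wt1 siRNA arrays 1, 2 and 3 or of control siRNA arrays 1, 2 and 4, with adjusted p up to 0.249. Its second tested probe set differed by 0.11 ± 0.35. Fasn, fatty acid synthase, had 7881, 7399.7, 8569 and 7728 in Wt1 siRNA cells, against 7264, 6782, 8463 and 7324 in control siRNA cells, with overlapping groups and a difference of 0.08 (-0.10 to 0.27).

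None of the 5 genes that desaturate or lengthen fatty acids passed, and their differences ran from -0.22 to 0.19 with a median of -0.20. Scd1 and Scd2 put the first double bond into saturated fatty acids. Scd2 signals were 30206, 30076, 30921 and 37186 in Wt1 siRNA cells, against 29721, 33511, 36044 and 31300 in control siRNA cells, a difference of -0.03 (-0.23 to 0.17). With quantile normalization Scd2 was lower (-0.17, adjusted p = 0.0150). Scd1 had 7172 ± 1012 in Wt1 siRNA and 8338 ± 709 in control siRNA cells (-0.22, -0.46 to 0.01), and its other probe set differed by 0.26. Elovl6, which lengthens palmitate, differed by 0.19 (-0.03 to 0.41). Fads1 and Fads2 desaturate polyunsaturated fatty acids. Fads1 had 8379 ± 882 in Wt1 siRNA and 9776 ± 1365 in control siRNA cells (-0.22, adjusted p = 0.174), and its other probe set differed by -0.36 (adjusted p = 0.100). Averaged over both probe sets, Fads1 passed (-0.29, adjusted p = 0.0132). Fads2 differed by -0.20 (-0.43 to 0.03), and by -0.32 on its other tested probe set.

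Of the 20 genes with several tested probe sets, 4 had probe sets on both sides of 0: Fdft1, Sc5d, Scd1 and Scd2. Counted as probe sets, 12 of 60 were called, against 23.1% of the 22519 tested. Of these, 8 were higher, against 10.8% of those tested, and 4 were lower, against 12.3%. Averaging all probe sets of a gene, those too dim to be tested included, ended the call on 8 of the 11 genes, among them Acly, Hmgcs1, Acaca and Abca1, and kept it on Insig1, Tm7sf2 and Stard4. Insig1 and Tm7sf2 have 1 probe set each, so averaging could not change their differences. In that setting Fdps differed by 0.05 (adjusted p = 0.952), Msmo1 by -0.02 (adjusted p = 0.973), Scap by 0.31 (adjusted p = 0.620) and Hsd17b7 by 0.36 (adjusted p = 0.0955). The second probe sets of Fdps and Scap were at or below the brightest array control for a bacterial transcript (227.2) on all 8 arrays. That of Msmo1 was so on 7. With the mean over tested probe sets alone, chosen after seeing the data, the calls on Acly, Hsd17b7, Stard4 and Hmgcs1 held. Those on Acaca and Abca1 were lost, and Fads1 was newly lower. The other called genes have 1 tested probe set, so their differences could not change there. Within a group of arrays, the log2 signal of a member had a median SD of 0.135, against 0.161 for all tested genes.

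**Figure D3:**
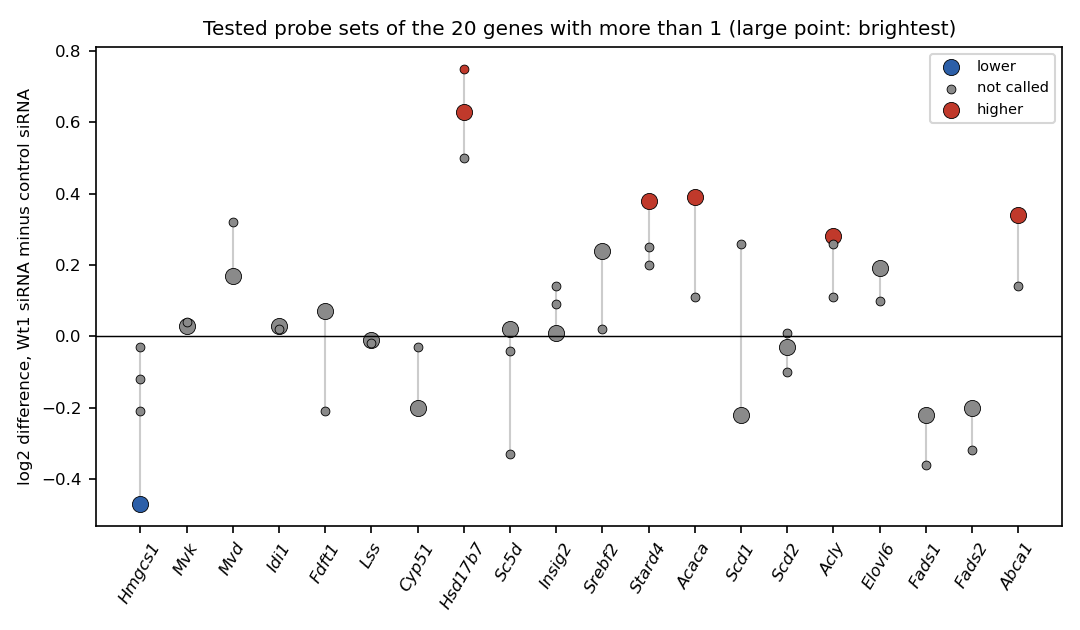
Log2 difference, Wt1 siRNA minus control siRNA, of every tested probe set of the 20 genes that had more than 1, with the brightest as the large point. Red is higher, blue lower and grey not past the threshold. Hsd17b7 has 2 red points, and the other called genes have only their brightest one coloured.

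Centring each array on its median signal, in place of the trimmed mean of the deposited values, raised the median of all tested genes by 0.108. Such centring shifts the difference of every gene by the same amount. The members therefore moved to a median of 0.12, and their distance of 0.018 above the median of all tested genes could not change. With this scaling 5 members were higher, Abca1, Fdps, Hsd17b7, Scap and Stard4, against a background of 12.2%, and 1 was lower, Insig1, against 6.84%. With quantile normalization 7 were higher and 4 lower, against 13.9% and 14.2% of all tested genes, with Scd2 in place of Tm7sf2 among the lower ones. Insig1 was lower, and Hsd17b7, Fdps, Scap, Stard4 and Abca1 were higher, under all 3 scalings.

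**Figure D4:**
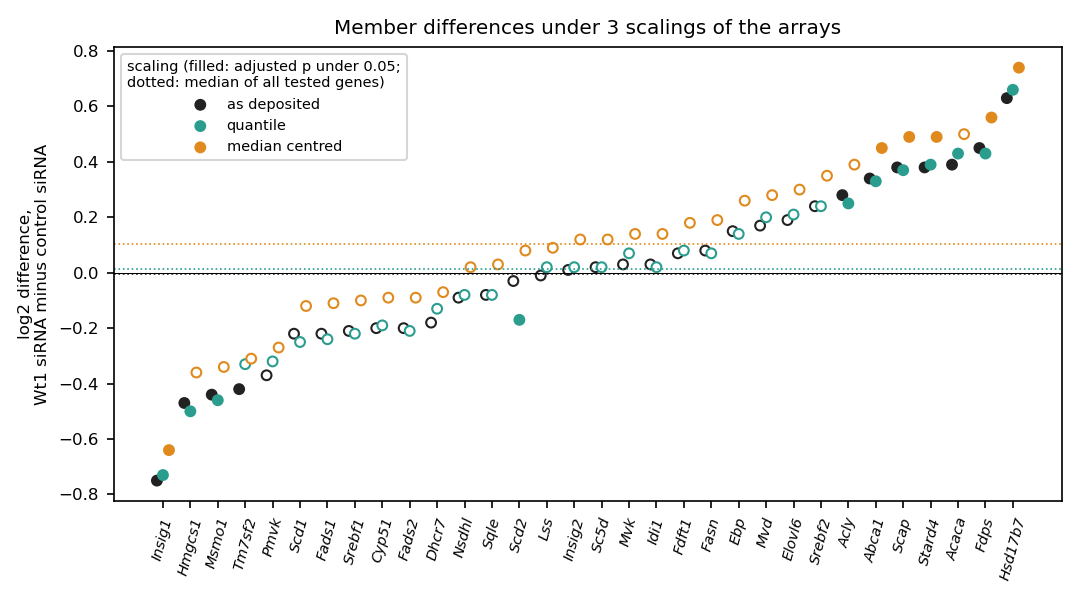
Log2 difference of each measured gene, Wt1 siRNA minus control siRNA, ordered by its value in the deposited scaling (black), with quantile normalization (green) and median centring (orange). Filled points pass the threshold of 0.05, and dotted lines are the median of all tested genes in each scaling. Centring by its construction lifts every gene by the same amount, and of the lower genes it leaves only Insig1 filled.

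Genes that work next to these enzymes were counted in 7 lists. Over all tested genes, 13.2% were higher and 14.6% lower, with a median of -0.0044. In the isoprenoid branch, which uses the product of Fdps, 1 of 10 tested genes was higher and 0 were lower (median 0.02). It was Fnta, a subunit of the protein farnesyl and geranylgeranyl transferases (0.45 ± 0.08, adjusted p = 0.00177). Its probe set is of a design that allows matches to more than 1 transcript. Without such probe sets no gene of this list was called. In the list of SREBP processing and sterol sensing, 2 of 11 were higher and 0 lower (median 0.05). They were Mbtps2, the protease that makes the last cut in SREBP (0.61 ± 0.09, adjusted p = 0.000663), and Erlin2, an endoplasmic reticulum protein of sterol-regulated degradation (0.38 ± 0.10, adjusted p = 0.0159). Mbtps2 signals were 5134, 4993, 5843 and 4428 in Wt1 siRNA cells, against 3376, 3115, 3504 and 3273 in control siRNA cells, so the groups were apart.

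Of 7 tested LXR factors and targets, 2 were higher and 1 was lower (median 0.19). The lower gene was Abcg1, a cholesterol efflux pump that, like Abca1, is a known LXR target. Abcg1 signals were 543, 455, 428 and 533 in Wt1 siRNA cells, against 884, 1046, 873 and 1119 in control siRNA cells. The log2 difference was -1.0 ± 0.16 (50.0% of control, adjusted p = 0.000877), the opposite direction to that of Abca1. Pltp, the phospholipid transfer protein, was higher (0.61 ± 0.11, adjusted p = 0.00237), and Lpcat3, a phospholipid acyltransferase, passed narrowly with overlapping groups (0.27 ± 0.09, adjusted p = 0.0464). In sterol transport and storage, 3 of 13 were higher and 1 was lower (median 0.10). The higher ones were Lipa, the lysosomal acid lipase (0.60 ± 0.09), Vldlr, a lipoprotein receptor (0.58 ± 0.15), and Scarb1, the HDL receptor (0.42 ± 0.09), and the lower one was Nceh1, a cholesteryl ester hydrolase (-0.51 ± 0.10).

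In fatty acid supply, elongation and activation, 3 of 17 tested genes were higher and 3 lower (median 0.22). The largest change was in Acsl4, which activates arachidonic acid and other polyunsaturated fatty acids. Acsl4 signals were 2693, 2607, 2464 and 1639.7 in Wt1 siRNA cells, against 6033, 6477, 7347 and 7370.4 in control siRNA cells. The groups were far apart, and the log2 difference was -1.56 ± 0.15 (34.0% of control, adjusted p = 3e-05). Of its relatives, Acsl3 was lower (-0.51 ± 0.11) and Acsl5 higher (0.49 ± 0.08). Mid1ip1, which promotes acetyl-CoA carboxylase activity, was lower (-0.42 ± 0.07, adjusted p = 0.00208).

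Among 16 genes of triacylglycerol synthesis and lipid droplets, 4 were higher and 1 was lower (median 0.18). The higher ones included Agpat4, an acyltransferase (0.85 ± 0.19, with overlapping groups), Lpin1, a phosphatidate phosphatase (0.73 ± 0.12), and Pnpla2, the triacylglycerol lipase (0.45 ± 0.09). Mgll, the monoacylglycerol lipase, was lower (-0.76 ± 0.15, adjusted p = 0.0039). In fatty acid oxidation, 1 of 19 was higher and 4 were lower (median -0.18). Acadl, the long-chain acyl-CoA dehydrogenase, had signals of 2285, 2041, 2093 and 1836 in Wt1 siRNA cells, against 7052, 5489.8, 6233 and 7046 in control siRNA cells. Its difference of -1.64 ± 0.10 (32% of control, adjusted p = 2.21e-06) exceeded that of every synthesis gene. Eci2 and Etfdh, enzymes of the same pathway, were lower by less (-0.39 ± 0.09 and -0.31 ± 0.09). Ppard, a nuclear receptor that promotes oxidation, was higher, with 1834, 1902, 1282 and 2212 in Wt1 siRNA cells, against 1147, 711, 679 and 517 in control siRNA cells (2.42-fold, adjusted p = 0.00238). With median centring, 1 oxidation gene was lower in place of 4, 1 gene of fatty acid supply in place of 3, and 0 genes of sterol transport and storage in place of 1. Without probe sets whose design allows matches to more than 1 transcript, 2 genes of sterol transport and storage were called in place of 4. In fatty acid supply, elongation and activation 4 were called in place of 6.

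**Figure D5:**
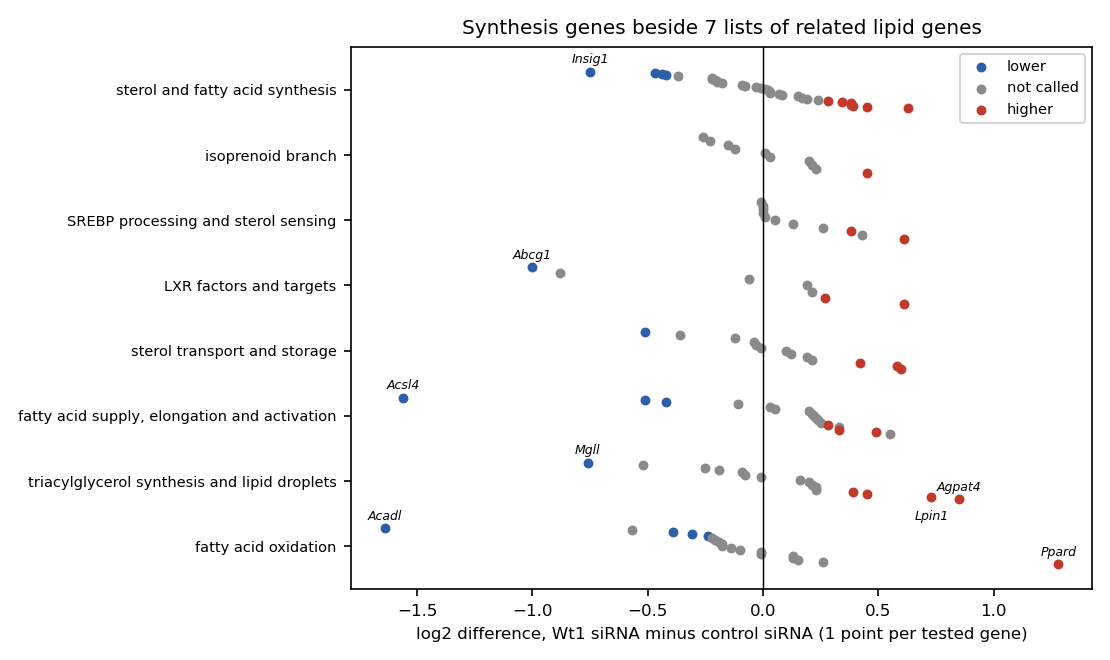
Log2 difference, Wt1 siRNA minus control siRNA, of each tested gene (1 point per gene, brightest probe set) among the synthesis genes, top, and in 7 lists of related lipid genes. Red is higher, blue lower and grey not past the threshold, and vertical offsets only separate points. The synthesis genes lie between -0.75 and 0.63, while Acsl4 and Acadl lie below -1.5.

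Markers of cell types were read beside these values. Of 10 kidney mesenchyme markers, Wt1, Osr1, Six2, Eya1 and Hoxa11 were bright enough to be tested, and Osr1 was higher (0.75 ± 0.19). Cited1, Gdnf and Sall1 were at or below the brightest array control for a bacterial transcript (227.2) on all 8 arrays. Among adipocyte markers, which bear on genes of lipid synthesis, Adipoq, Fabp4 and Cidec were at or below that level on all 8 arrays. Lpl was lower in Wt1 siRNA cells (-1.05 ± 0.18, adjusted p = 0.0014). Pparg passed the threshold, at 609 ± 42.7 in Wt1 siRNA and 191 ± 113 in control siRNA cells. It was bright enough to be tested only through the Wt1 siRNA arrays. Its control siRNA signals, 32.4 to 285.3, were all below the lowest mean signal tested (291.1), so the size of its difference is uncertain. Pparg was at or below the bacterial control level of 227.2 on 2 control siRNA arrays. Cebpa, too dim to be tested, had 204 ± 119 in Wt1 siRNA and 54.5 ± 21.6 in control siRNA cells. Its groups were apart, and it was at or below that level on 6 of the 8 arrays. The summed signal of the 6 measured adipocyte markers was 9094 to 10871 in Wt1 siRNA and 12397 to 24373 in control siRNA arrays, most of it Lpl. Of 5 measured hepatocyte markers, 4 were at or below the control level on all arrays, Alb, Ttr and Apoa1 among them. The steroidogenic markers Star and Nr5a1 were tested and did not pass, with a summed signal of the 5 measured markers of 1240 to 1711 in Wt1 siRNA and 1271 to 1608 in control siRNA arrays. Ptprc, which marks leukocytes, and Pecam1, which marks endothelium, were at or below the control level on all arrays. Of 6 leukocyte markers, Cd68 was higher (0.99 ± 0.10) and Csf1r and Adgre1 were lower (-0.76 ± 0.15 and -0.92 ± 0.26), with a summed signal of 5050 to 5296 in Wt1 siRNA and 4570 to 5329 in control siRNA arrays. Of 5 endothelial markers, only Kdr was bright enough to be tested, and it was lower (-0.45 ± 0.11). Another 3 were at or below the control level on all arrays. The summed signal of the 5 was 1593 to 1840 in Wt1 siRNA and 2052 to 2718 in control siRNA arrays, most of it Kdr. Of 6 kidney stroma markers, 2 were lower, Dcn (-1.36 ± 0.24) and Tbx18 (-0.91 ± 0.14), with a summed signal of 3307 to 5108 in Wt1 siRNA and 7298 to 10410 in control siRNA arrays. Of 5 epithelial markers, Cdh1 and Krt8 were higher and Epcam and Krt18 were lower, with a summed signal of 19347 to 20483 in Wt1 siRNA and 21543 to 23488 in control siRNA arrays. With median centring Nr5a1 passed (0.72, adjusted p = 0.0323), and Kdr (-0.35, adjusted p = 0.0979) and Krt18 (-0.09, adjusted p = 0.703) did not. The part of these markers in the differences of the synthesis genes was not tested.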

How the data were processed

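LB-22 cells in 2 groups of 4 arrays (Wt1 siRNA and control siRNA, grouped by sample title) were compared. The deposited values are a linear intensity (signal) of each probe set. MAS5 made them, per the submitters' processing notes, and the sources used here give no version of it. All 45101 probe sets had values above 0, and the trimmed mean was 1500.0 on every array. Array number limits the precision.

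Probe sets were named from the platform annotation, with 34945 of 45037 non-control probe sets having 1 symbol, 932 several and 9160 none. Values were log2 transformed without further scaling. The brighter share of 0.5 by mean log2 signal over the 8 arrays (22519 probe sets, lowest geometric mean signal 291.1) was fitted with limma 3.58.1 in R 4.3.3 (lmFit, eBayes with an intensity trend), two-sided, with Benjamini-Hochberg adjustment over all tested probe sets. A gene was its brightest probe set. A fold or percent of control is the ratio of geometric means. The procedure was tested on simulated data. Background was read from 27 probe sets for Bacillus subtilis transcripts (highest signal 227.2). Promoter windows are RefSeq's (GRCm38.p6). A planned comparison of protein sequences was not run, as protein sequences were not used here.

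The named genes are all members, Wt1, and up to 4 called genes with the largest differences per related list, plus marker genes. The members and lists were chosen with earlier results of these data known. The alternatives were other scalings, added constants, filters, rules for several probe sets, a replicate block and leaving out each array.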

Additional observations from a re-analysis of the deposited data

Results flagged for a closer look

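In a group of 4 arrays, an array was singled out when its gap to the nearest other array, divided by the range of the group, was above Dixon's 95% critical value. This was so in 14 of 120 groups (the 60 tested probe sets in each group), where chance alone gives about 1 in 20. Wt1 siRNA array 4 was the array in 6 of them and control siRNA array 3 in 5. The median signal over all probe sets was 337.1 on Wt1 siRNA array 4, against 281.8 to 299.1 on the others of its group. It was 279.1 on control siRNA array 3, against 336.1 to 346.1 on the others of its group. In this trait each of the 2 arrays was nearer to most arrays of the opposite group than to its own. Why these arrays stand apart was not tested.

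On Wt1 siRNA array 4, Insig1 had a signal of 1310.6, against 2185.4 to 2361.6 on the other 3 Wt1 siRNA arrays. On the same array a probe set of Fdft1 had 1438.5, against 2372.7 to 2552.3, and one of Sc5d had 3617.5, against 4231.6 to 4295.0. It was the highest of its group for Scd2 on 2 probe sets, with 37186.4, against 30076.1 to 30921.2, and 17968.3, against 12480.4 to 13197.8. It was also the highest for a probe set of Fads2, with 5326.8, against 3771.6 to 3945.4. Without this array the log2 difference of Insig1 was -0.55.

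Control siRNA array 3 was the lowest of its group each time it stood apart. It had 3590.6 for a probe set of Sc5d, against 4207.2 to 4223.7 on the other 3 control siRNA arrays, and 1392.3 for one of Insig2, against 1596.4 to 1636.3. A probe set of Stard4 had 1632.5 there, against 2674.8 to 2922.8. The dimmest tested probe set of Scd2 had 977.5, against 4994.8 to 5942.2, and the second probe set of Abca1 had 524.9, against 1062.1 to 1132.6.

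The last 3 were Hsd17b7 on Wt1 siRNA array 3, with 2118.4 against 1789.3 to 1828.5, Stard4 on control siRNA array 2, with 1626.4 against 2385.0 to 2490.4, and Mvk on control siRNA array 4, with 1235.2 against 1501.0 to 1545.4.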

How the results depend on the processing

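Of 664 member differences recomputed under 21 alternatives, 597 kept their direction and their side of the threshold, 33 were no longer past it, 4 newly passed it and 30 changed sign, of which 1 had been called. Median centring gave 1 lower member gene, 1 lower member probe set and a median member difference of 0.12, and it turned Sqle to 0.03, Lss to 0.09, Nsdhl to 0.02 and Scd2 to 0.08. Quantile normalization turned Lss to 0.02. The mean over all probe sets of a gene, dim ones included, gave 1 higher member gene, Stard4, and 3 lower, Fads1, Insig1 and Tm7sf2, and turned Sc5d to -0.12, Scd1 to 0.02 and Acly to -0.38 (adjusted p = 0.412). Without probe sets whose design allows matches to more than 1 transcript there were 2 lower member genes and 2 lower member probe sets, with 29 of 32 members tested: Msmo1, Pmvk and Srebf1, and also Wt1, had no probe set left to test. Chosen after seeing the data, the mean over tested probe sets turned Fdft1 to -0.07, Sc5d to -0.12 and Scd1 to 0.02, and leaving out both Wt1 siRNA array 4 and control siRNA array 3 gave 8 lower member probe sets and turned Sqle to 0.02 and Insig2 to -0.02. Leaving out 1 array at a time gave 6 to 7 higher and 3 to 4 lower member genes, 7 to 8 higher and 3 to 6 lower member probe sets, a median of -0.01 to 0.04 and a Wt1 difference of -2.37 to -2.19. Over the same omissions Mvk ran from -0.04 to 0.13, Idi1 from -0.02 to 0.10, Lss from -0.11 to 0.06, Sc5d from -0.04 to 0.08, Insig2 from -0.03 to 0.05 and Scd2 from -0.10 to 0.02. With the replicate number as a block, 6 member genes were higher and 3 lower, with Acaca at an adjusted p of 0.0552 and Tm7sf2 at 0.0900. Arrays with the same number correlated at -0.062 to 0.082 in their deviations from the group means, and 1 of 4 Wt1 siRNA arrays correlated best with its own number. With 4 arrays per group, these correlations cannot tell whether the numbers pair the samples. The 15 dim member probe sets, with an arithmetic mean signal of at most 358, were not tested.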

Other observations

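Of the member probe sets too dim to be tested, one annotated to Acly ran opposite to the gene's bright probe sets. Its signals were 174.3, 155.5, 199.9 and 55.0 on the Wt1 siRNA arrays, against 305.2, 257.1, 217.1 and 324.7 on the control siRNA arrays, so the groups were apart. On 5 of the 8 arrays it was at or below the brightest bacterial control probe set.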
